A study of Mus musculus with 24 samples.

Results

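The comparison described here is the genotype effect that liver and kidney of Glo1+/- mice share. It rests on 12 of the 24 arrays of the series: 3 Glo1+/- livers, 3 WT livers, 3 Glo1+/- kidneys and 3 WT kidneys. The effect is the Glo1+/- minus WT difference averaged over both tissues, with a mean for each genotype in each tissue, and the question asked of it is which genes move the same way in both organs. Glo1+/- animals carry 1 knockout allele of Glo1 in the whole body, on a C57BL/6J background, from a line re-derived by embryo transfer; WT animals are C57BL/6J mice of the same age. All mice were 36 weeks old, ate standard chow and were labelled female. The labels do not say whether a liver and a kidney of the same number came from the same animal, nor at what time of day or after how long without food the tissues were taken.

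Glo1 encodes glyoxalase 1, a cytosolic enzyme that uses glutathione to convert methylglyoxal, a reactive by-product of glycolysis, into an intermediate that glyoxalase 2 turns into lactate. Methylglyoxal otherwise modifies proteins into advanced glycation end products. Liver and kidney are both organs of gluconeogenesis and of fatty acid oxidation, and both follow the circadian clock, glucocorticoids and the fed or fasted state, so many metabolic genes are regulated in each of them.

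Values are on the log2 scale of the deposited table, in which 25697 probes lie between 7.96 and 15.12 on these arrays with array medians of 8.22 to 8.25, close to the floor. Differences of dim genes are therefore understated. Arrays of 1 tissue correlated at 0.986 to 0.996 in liver and at 0.991 to 0.996 in kidney. The tissue labels fit the markers: the median of 16 hepatocyte genes lay at 14.02 to 14.30 in the livers, and the median of 15 kidney tubule genes lay at 12.74 to 13.00 in the kidneys and at 8.09 to 8.17 in the livers. WT kidney 1 stood apart in hepatocyte genes, with a median of 9.62 against 8.15 to 8.27 in the other 5 kidney libraries. WT kidney 2 and 3 carried more adipocyte signal, with summed levels of 11.97 and 12.21 against 11.30 to 11.43 in the other kidney libraries. The label female goes against the arrays. Xist, the transcript of the inactive X chromosome, lay at 8.08 to 8.25 on both of its probes in all 12 libraries, Eif2s3y, on the Y chromosome, at 10.33 to 11.24, and the male urinary protein gene Mup20 at 13.29 to 13.65 in the livers.

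Glo1 itself, read by 1 probe, fell to 0.543 of the WT level in the average of both tissues. It had 13.22, 12.90 and 13.15 in Glo1+/- livers, against 13.91, 14.16 and 13.85 in WT livers. Kidneys gave 11.56, 11.31 and 12.06 in Glo1+/- and 12.51, 12.62 and 12.45 in WT. The genotypes did not overlap in either organ, and the change was the same size in both, at -0.88 in liver and -0.88 in kidney (average -0.88 ± 0.10 SE, n = 3 per group, limma adjusted p = 0.000335). The other genes of dicarbonyl clearance and of receptors for advanced glycation end products did not pass. Of 20 such genes on the array, 1, Glo1, was called, and their median average change was 0.03; Hagh, which encodes glyoxalase 2, changed by -0.06 (adjusted p = 0.748) and Ager, the receptor for advanced glycation end products, by 0.06 (adjusted p = 0.574). Of the 40 protein-coding genes nearest to Glo1 on chromosome 17, 34 had a probe, and only 20 of the 34 lay above the median of the table. By limma 0 of the 34 were called, with average changes between -0.29 and 0.07. Of all 16593 genes, each read by its brightest probe, 0.856% were called higher and 1.16% lower, so 0 of 34 says little. Over all probes 3583 of 25697 had an unadjusted p under 0.05, and the neighbours were not counted that way.

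Over the whole table, 466 probes were called on average at an adjusted p under 0.05 (1.81% of 25697; all adjusted p-values are limma's with Benjamini-Hochberg adjustment). Of these 236 were higher in Glo1+/- (0.918%) and 230 were lower (0.895%). The sign was the same in liver and kidney for 444 of them and opposite for 22, and the difference between the tissues was itself called for 16. By the tissues' own tests, 459 probes were called in liver (1.79%), 210 higher (0.817%) and 249 lower (0.969%), and 64 in kidney (0.249%), 37 higher (0.144%) and 27 lower (0.105%). Of the 466, 248 were called in liver but not in kidney, 36 in kidney but not in liver, 13 in both and 169 in neither. A call in 1 organ does not show that the organs differ, since the test of the difference called only 22 probes of the table (0.0856%), 14 with the higher effect in liver (0.0545%) and 8 with the lower (0.0311%). Slides hold the groups unevenly: WT liver 1 and 2 are on slide 1, Glo1+/- kidney 2 and 3 on slide 3, and the other 8 arrays on slide 2. With the slide as a fixed block, which rests on the arrays of slide 2 alone, 1293 probes were called, 592 higher and 701 lower; with the slide as a random block the count was 485. The count was 228 to 307 without any 1 of Glo1+/- kidney 1 or 3, a Glo1+/- liver, or WT kidney 2 or 3, and 117 with the spread of all 24 arrays.

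The strictest reading of "the same way in both" is a call in each organ alone with equal signs. It held for 13 probes of 10 genes (0.0506% of the table), and 0 probes were called in both organs with opposite signs (unadjusted p under 0.05: 3707 probes in liver and 1982 in kidney). Higher in Glo1+/- were Cyp4a31, Slc25a20, Per1, Eci2, Aacs, Gstt2 and Etnppl, and lower were Glo1, Ide and Col4a1. This count depends on single arrays: it was 3 to 6 without any 1 of the Glo1+/- arrays or without WT kidney 1 or 2, 20 without WT liver 2, 27 without WT liver 3, and 38 without WT 3 of both tissues, a setting chosen after the data were seen.

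A wider set takes probes that were called on average and whose 3 Glo1+/- values all lay on the same side of the 3 WT values in liver and in kidney. It holds 265 probes (1.03% of the table), 132 higher and 133 lower in Glo1+/-. The number was 163 without Glo1+/- kidney 3, 170 without Glo1+/- liver 2, 160 with liver and kidney of 1 number averaged and 68 with the spread of all 24 arrays. Without regard to the call, groups were apart in both organs in the same direction for 683 probes (2.66%) and in opposite directions for 173 (0.673%). The 247 probes of the wider set that have a gene name and lie above the table's median in both tissues stand for 225 genes, 105 higher and 120 lower. They are called the shared genes below. Most changes were small: 188 of the 225 had an average change under 0.5 in size, and the median size was 0.35. Liver had the larger change for 158 of them (70.2%), with a median size of 0.41 in liver and 0.30 in kidney. By the probe that represents each gene, the difference between the organs was called for 0 of the 225. It was called on other probes of 1 of them, Pcsk4. These sizes describe genes chosen by the same contrast. Across the 11462 probes above the median in both organs, which are not independent replicates and share the same 12 arrays, liver and kidney changes correlated at r = 0.350 (Spearman rho = 0.325).

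**Figure D1:**
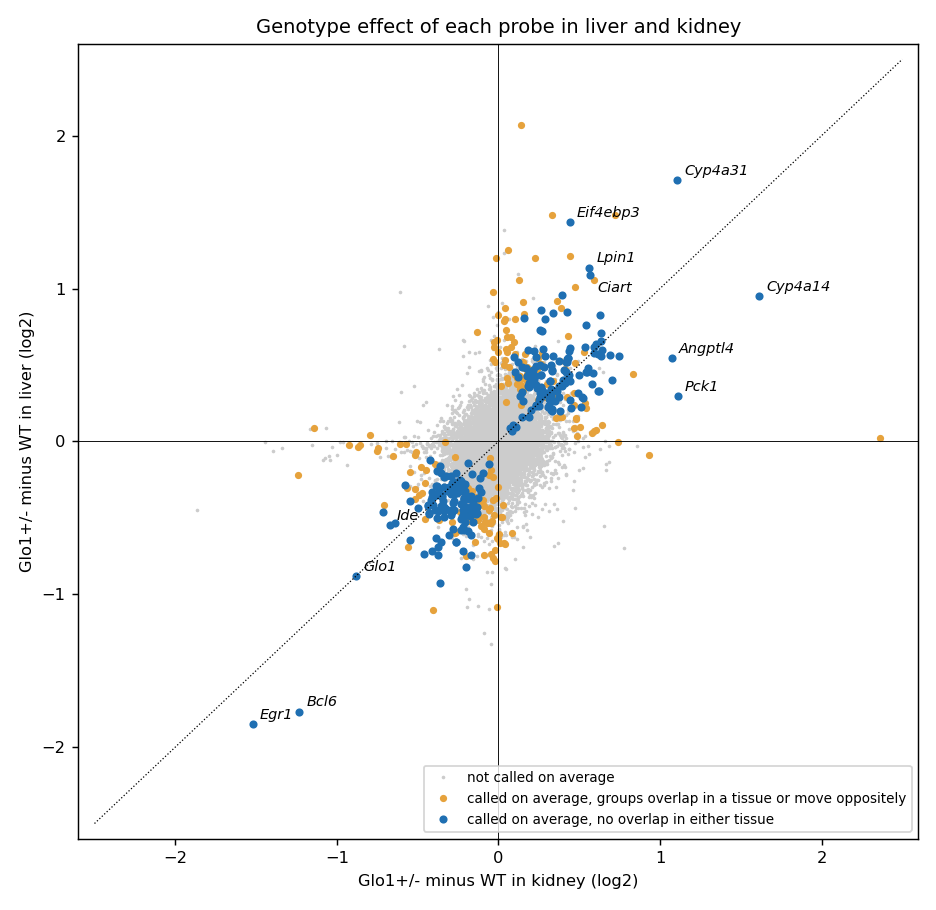
Genotype effect of every probe in liver (vertical axis, log2 difference Glo1+/- minus WT) against kidney (horizontal axis, same unit), with the 265 probes of the wider set in blue, the other called probes in orange and the rest in grey. Glo1 lies on the dotted line of equal change at -0.88 in both organs, and among the blue points Egr1 and Bcl6 have the largest falls and Cyp4a31 and Cyp4a14 the largest rises.

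The transcription factors Egr1 and Bcl6 had the largest falls among the shared genes. Egr1, an immediate early gene induced by growth factor and stress signals, had 10.33, 10.02 and 9.65 in Glo1+/- livers, against 13.08, 10.97 and 11.50 in WT livers. In kidneys it had 9.74, 9.48 and 9.45 in Glo1+/- and 11.47, 10.77 and 10.996 in WT. No Glo1+/- library reached the lowest WT library of its organ, and WT liver 1 was the highest of all (average -1.69 ± 0.24, adjusted p = 0.00131). Of 25 immediate early genes, Jun, a subunit of the AP-1 factor, was the other one called (-0.33 ± 0.06, adjusted p = 0.00553). In the list 2 fell and 0 rose, where 1.16% of all genes fell and 0.856% rose, and its median was -0.05. Fos, the AP-1 partner of Jun, did not pass (-0.46, adjusted p = 0.0949).

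Bcl6, a transcriptional repressor that in liver opposes PPAR alpha and is itself repressed by growth hormone signalling, had 9.64, 9.70 and 10.73 in Glo1+/- livers and 11.79, 12.09 and 11.50 in WT livers. Kidneys had 9.43, 10.06 and 10.80 in Glo1+/-, against 11.37, 11.39 and 11.24 in WT. The Glo1+/- libraries were spread over more than 1 log2 unit in each organ and still lay wholly below WT (average -1.50 ± 0.19, 0.353 of the WT level, adjusted p = 0.000845). Bcl6 was the only called member, of 12, in the list of its own targets and the growth hormone and STAT5 axis, whose median was -0.03. Of all genes 1.16% fell and 0.856% rose, and Bcl6 is described here for its own fall, so 1 of 12 says little about the list.

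Ide, the insulin-degrading enzyme, a zinc protease that also cleaves glucagon and amyloid beta, was among the named genes that fell in both organs. Its values were 10.74, 10.69 and 10.75 in Glo1+/- livers, against 11.33, 11.20 and 11.29 in WT livers. In kidneys they were 10.29, 10.35 and 10.08 in Glo1+/- and 10.96, 10.82 and 10.96 in WT. Both organs passed alone, with changes of -0.55 in liver and -0.67 in kidney (average -0.61 ± 0.07, 0.655 of the WT level, adjusted p = 0.000197). Ide lies on chromosome 19 and Glo1 on chromosome 17.

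**Figure D2:**
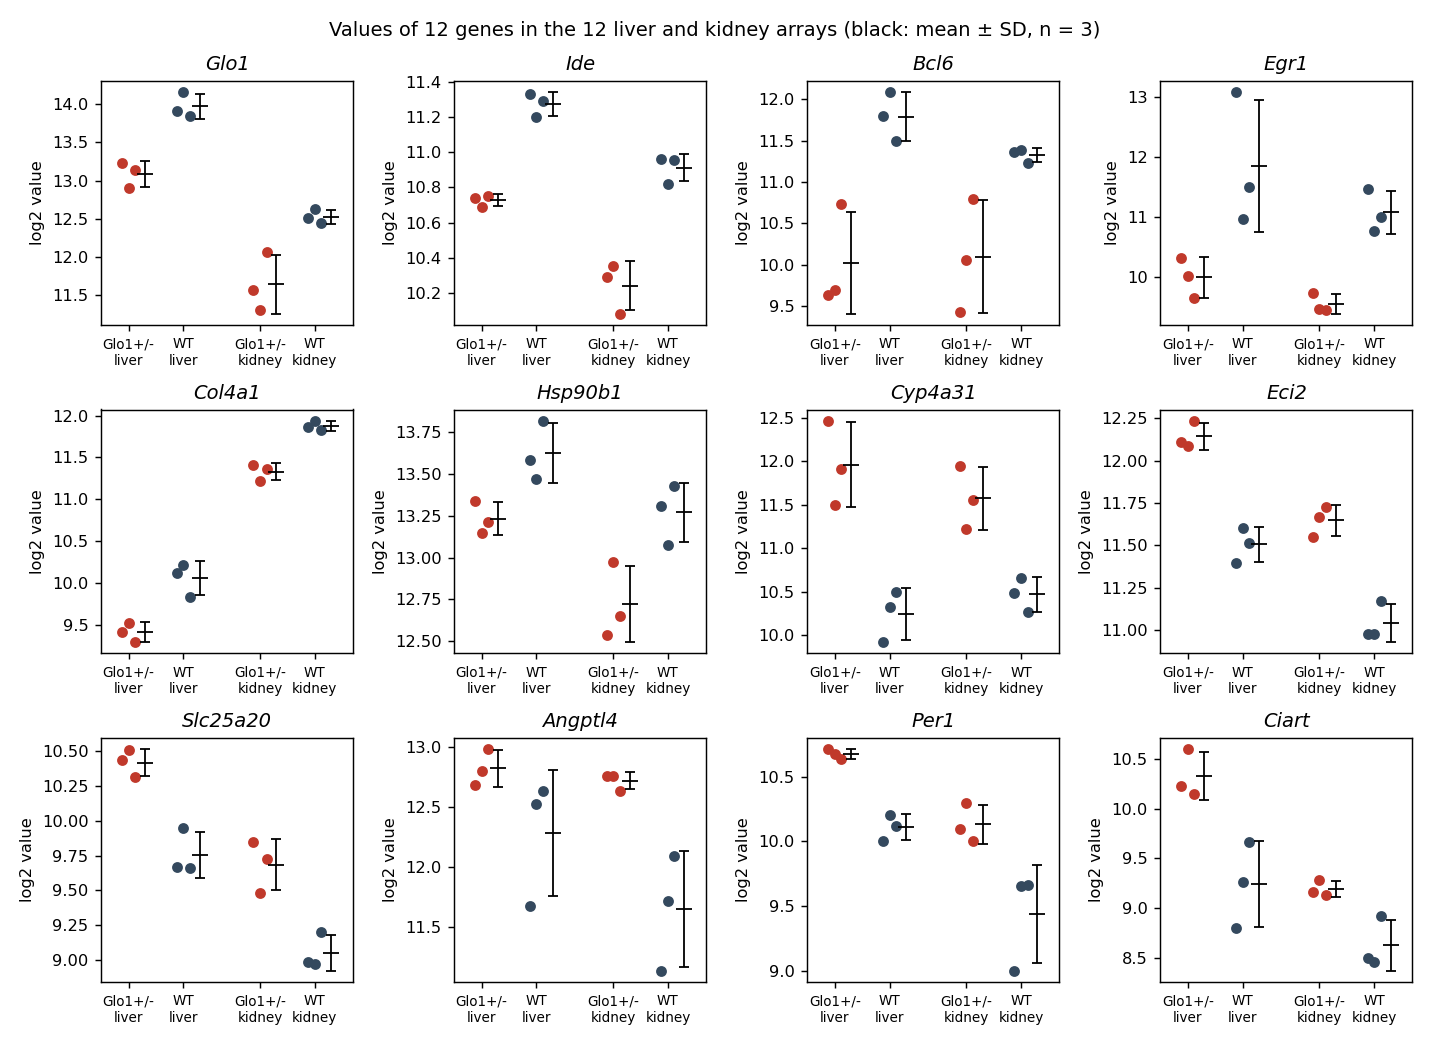
Log2 values of 12 named genes in each array, with Glo1+/- in red and WT in dark blue for liver (left) and kidney (right) and the mean ± SD (n = 3) in black beside each group. In every panel the red and blue points of an organ do not overlap, which was a rule of the choice of genes. Glo1, Ide, Bcl6, Egr1, Col4a1 and Hsp90b1 are lower in Glo1+/-, and Cyp4a31, Eci2, Slc25a20, Angptl4, Per1 and Ciart are higher.

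Fatty acid oxidation and other targets of PPAR alpha form the list with the most called genes. PPAR alpha is a nuclear receptor that fatty acids activate during fasting. Of 31 listed genes on the array, 14 rose on average, 0 fell and 17 did not pass, where 0.856% of the 16593 genes, each read by its brightest probe, rose and 1.16% fell; the median change was 0.31 against -0.01 over all genes. Groups were apart in both organs for 11 of the 14, as they were for 265 of the 466 called probes of the whole table. Of the 14, 10 have a promoter window of the kind described with the clock genes below. Direct repeat 1, searched as the PPAR element, is in 0 of these 10. It is in 1 of 85 higher and 4 of 103 lower shared genes with a window. Of all genes with a window 0.451% hold it, so 0 of 10 says little. The list's median by organ was 0.31 in liver and 0.41 in kidney, and its median level lay at 11.82 to 12.10 in Glo1+/- livers and 11.48 to 11.66 in WT livers, and at 11.22 to 11.61 in Glo1+/- kidneys and 10.66 to 10.79 in WT kidneys. The count was 11 to 17 in the alternative fits and with any array left out, apart from a fit that takes its spread from all 24 arrays, where it was 2.

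Cyp4a31, a microsomal fatty acid omega-hydroxylase, rose most. It had 12.47, 11.49 and 11.92 in Glo1+/- livers, against 9.92, 10.32 and 10.50 in WT livers. Kidneys had 11.94, 11.22 and 11.56 in Glo1+/- and 10.48, 10.66 and 10.27 in WT. The groups were apart by over 0.5 in each organ (average 1.41 ± 0.15, 2.65-fold, adjusted p = 0.000197). Cyp4a14, of the same family, changed by 1.28 ± 0.25 (adjusted p = 0.0102), with 0.95 in liver and 1.61 in kidney. The Cyp4a genes are close relatives, and whether a probe reads more than 1 of them was not tested.

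Eci2, an isomerase needed to oxidise unsaturated fatty acids, had 12.11, 12.08 and 12.24 in Glo1+/- livers and 11.40, 11.60 and 11.51 in WT livers. Its kidney values were 11.55, 11.67 and 11.72 in Glo1+/-, against 10.97, 10.98 and 11.17 in WT. Both organs passed alone with nearly equal changes, 0.64 in liver and 0.61 in kidney (average 0.62 ± 0.07, adjusted p = 0.000197). Slc25a20, the mitochondrial carnitine and acylcarnitine carrier, had 10.44, 10.50 and 10.31 in Glo1+/- livers against 9.67, 9.95 and 9.66 in WT livers, and 9.85, 9.48 and 9.73 in Glo1+/- kidneys against 8.98, 8.97 and 9.20 in WT kidneys. It rose in each organ alone (average 0.65 ± 0.08, adjusted p = 0.000444). A second probe of Slc25a20, brighter, gave 0.59, and a probe near the floor gave -0.02.

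Enzymes of the mitochondrial spiral were among the called members. The acyl-CoA dehydrogenases Acadl (0.53 ± 0.07, adjusted p = 0.00129) and Acadvl (0.37 ± 0.06, adjusted p = 0.00437), which take long-chain substrates, and the thiolase Acaa2 (0.65 ± 0.12, adjusted p = 0.00761), which makes the last cut, were all apart in both organs. So were Etfdh (0.48), which passes the electrons to ubiquinone, Hadhb (0.40), the thiolase subunit of the trifunctional protein, and Eci1 (0.47), the mitochondrial isomerase. Cpt2, the inner-membrane carnitine palmitoyltransferase, rose by 0.37 on average with 0.10 in liver and 0.64 in kidney, and Fgf21, a fasting hormone of the liver, by 0.29 with 0.58 in liver and -0.003 in kidney. For Fgf21, which lay at the floor in kidney with a mean of 8.11 in each genotype, the difference between the organs was called. It was also called for Acaa1b, a peroxisomal thiolase that did not pass on average (0.18, adjusted p = 0.140). Acaa1b changed by -0.17 in liver and 0.52 in kidney. Members that did not pass include Ppara itself (0.14, adjusted p = 0.382), Cpt1a (-0.03, adjusted p = 0.624, at the floor) and Pdk4, which spares glucose from oxidation (0.05, adjusted p = 0.935).

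Angptl4, a secreted inhibitor of lipoprotein lipase, had 12.68, 12.80 and 12.98 in Glo1+/- livers, against 11.68, 12.53 and 12.63 in WT livers. In kidneys it had 12.76, 12.76 and 12.64 in Glo1+/- and 11.13, 11.72 and 12.09 in WT. The groups nearly touched in liver, where the change alone did not pass (0.54, adjusted p = 0.234), and were clearly apart in kidney (average 0.81 ± 0.15, adjusted p = 0.00857). The average did not pass with the slide as a fixed block or without a trend in the prior variance.

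Lipid synthesis ran the other way for 6 of 25 listed genes, where 1.16% of all genes fell. Of the list 2 were higher, where 0.856% of all genes were, and the median was -0.16. Lower were Srebf1 (-0.46 ± 0.08, adjusted p = 0.00766), the transcription factor that drives fatty acid synthesis, Acaca (-0.37 ± 0.07, adjusted p = 0.00624), the acetyl-CoA carboxylase that commits carbon to it, Acly, Elovl6 and the desaturases Fads1 and Fads2. Acaca had 11.43, 11.41 and 11.35 in Glo1+/- livers and 11.88, 12.03 and 11.81 in WT livers, and 9.74, 9.93 and 9.84 in Glo1+/- kidneys and 10.03, 10.01 and 10.16 in WT kidneys. The change of Acly and Elovl6 lay in liver, at -0.66 and -0.74, with 0.03 and -0.05 in kidney, although the difference between the organs was not called for either. The 2 that rose were Lpin1 (0.85 ± 0.13, adjusted p = 0.00215), a phosphatidate phosphatase that also coactivates PPAR alpha, and Pnpla2 (0.45 ± 0.08, adjusted p = 0.00672), the lipase that opens triglyceride stores. In liver the list's median was -0.26 and in kidney 0.01. The number lower was 2 or 3 without any 1 of Glo1+/- kidney 3, a Glo1+/- liver, or WT kidney 1 or 2, 0 with the spread of all 24 arrays, 10 without WT liver 3 and 11 without WT 3 of both tissues.

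Of 19 genes of gluconeogenesis and glycolysis, 3 rose and 1 fell (median 0.10), where 0.856% of all genes rose and 1.16% fell. Pck1, the committed enzyme of gluconeogenesis, had 9.96, 10.02 and 9.98 in Glo1+/- livers against 9.62, 9.84 and 9.61 in WT livers. In kidneys it had 10.10, 10.19 and 9.90 in Glo1+/- against 8.68, 8.68 and 9.49 in WT. The change was 0.29 in liver and 1.11 in kidney (average 0.70 ± 0.11, adjusted p = 0.00298), and the difference between the organs was not called (adjusted p = 0.264). Pcx, pyruvate carboxylase (0.35), and Fbp1, fructose bisphosphatase (0.29), also rose, and Hk2, a hexokinase of glycolysis, fell (-0.24).

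The circadian clock runs on a feedback loop in which CLOCK and BMAL1 (Arntl) bind E-boxes and activate the genes of their own repressors and of the output factors Dbp and Tef. In the 14 genes listed as E-box outputs, 5 rose and 0 fell, where 0.856% of all genes rose and 1.16% fell. The median change was 0.25, and the 5 are Ciart, Per1, Usp2, Dbp and Tef. The promoter windows of Ciart and Per1 follow, from RefSeq on build GRCm38.p6, with the E-box CACGTG in capitals. Each window has 250 bases before and 50 after the transcript start. The Ciart window is chr3:95882179-95882478 on the minus strand and holds 3 E-boxes, and the Per1 window is chr11:69098699-69098998 on the plus strand and holds 1.
Ciart: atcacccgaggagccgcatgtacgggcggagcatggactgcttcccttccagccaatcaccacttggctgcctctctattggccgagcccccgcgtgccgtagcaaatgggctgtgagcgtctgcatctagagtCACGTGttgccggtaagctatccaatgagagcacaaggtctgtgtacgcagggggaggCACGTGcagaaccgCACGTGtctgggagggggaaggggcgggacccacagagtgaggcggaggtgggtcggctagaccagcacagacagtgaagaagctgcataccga
Per1: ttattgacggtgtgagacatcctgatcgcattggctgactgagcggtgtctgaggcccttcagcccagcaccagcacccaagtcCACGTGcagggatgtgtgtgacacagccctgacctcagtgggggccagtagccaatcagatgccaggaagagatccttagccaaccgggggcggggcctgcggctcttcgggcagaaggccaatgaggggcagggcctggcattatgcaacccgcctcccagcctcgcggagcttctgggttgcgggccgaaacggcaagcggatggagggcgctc

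All 5 called outputs have a window, and 3, Ciart, Per1 and Tef, hold the E-box, as do 4 of the 11 listed genes with a window. The list is one of E-box outputs, so a larger share than in other genes is built into it. The E-box is in 7.15% of the 32851 windows of the table and in 8.09% of the genes with a window. Among the shared genes it is in 13 of the 85 higher genes with a window (15.3%) and in 11 of the 103 lower ones (10.7%). The D-box, TTAT or TTAC followed by GTAA, is in 0 of the 5, and in 0.938% (TTAT) and 0.119% (TTAC) of all windows. All motifs were searched on both strands. A match is a description of letters, and no match says only that they are not in this window.

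Ciart, a repressor of CLOCK and BMAL1, had 10.23, 10.60 and 10.15 in Glo1+/- livers, against 8.80, 9.26 and 9.67 in WT livers. In kidneys it had 9.16, 9.29 and 9.13 in Glo1+/- and 8.50, 8.46 and 8.92 in WT. WT 3 was the highest WT library in each organ and still lay below every Glo1+/- library (average 0.83 ± 0.12, adjusted p = 0.00158). Per1, a repressor that also answers to glucocorticoids, had 10.71, 10.67 and 10.64 in Glo1+/- livers and 10.00, 10.20 and 10.12 in WT livers, and 10.10, 10.30 and 10.00 in Glo1+/- kidneys and 9.001, 9.65 and 9.67 in WT kidneys. Both organs passed alone for Per1 (average 0.63 ± 0.10, adjusted p = 0.0028).

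Dbp (0.47 ± 0.11, adjusted p = 0.0279) and Tef (0.38 ± 0.09, adjusted p = 0.0317) were apart in both organs with small margins, again next to WT 3. Usp2, a clock-driven ubiquitin protease, had 11.55, 12.003 and 11.90 in Glo1+/- livers against 9.57, 10.12 and 11.32 in WT livers, and 12.18, 12.26 and 12.26 in Glo1+/- kidneys against 11.62, 11.88 and 12.19 in WT kidneys, so that on this probe it overlapped in kidney through WT 3. Its probes disagree: a dimmer one, apart in both organs and so among the shared genes, gave 0.23 on average against 0.91. Of 6 activators and genes of the opposite phase, Clock fell (-0.35 ± 0.06, adjusted p = 0.00813) and 5 did not pass. Per2 (0.55, adjusted p = 0.283), Nr1d1, or Rev-erb alpha (-0.20, adjusted p = 0.605), and Arntl (-0.18, adjusted p = 0.187) did not pass. The number of outputs that rose was 2 with the slide as a fixed block or without a trend in the prior variance, 1 with the spread of all 24 arrays, 2 or 3 without any 1 of the Glo1+/- arrays, WT kidney 1 or 2 or WT liver 1, 6 without WT liver 3 or WT kidney 3, and 7 without WT 3 of both tissues.

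Of 21 genes that glucocorticoids induce, 7 rose and 1, Bcl6, fell, where 0.856% of all genes rose and 1.16% fell. The list's median was 0.16. Lpin1, Per1, Pck1 and Angptl4 of this list are described above and count in other lists as well. The others that rose were Fkbp5, a feedback inhibitor of the glucocorticoid receptor (0.74 ± 0.17, adjusted p = 0.0314), Tsc22d3, an anti-inflammatory target of the receptor (0.64 ± 0.13, adjusted p = 0.0159, with 0.35 on a dimmer probe), and Lcn2, an iron-binding acute phase protein, which changed by 2.07 in liver and 0.14 in kidney. Fkbp5 overlapped through WT 3, with 10.10, 10.40 and 10.20 in Glo1+/- livers against 8.80, 8.83 and 10.03 in WT livers and 10.13, 10.33 and 9.95 in Glo1+/- kidneys against 9.62, 9.29 and 10.08 in WT kidneys. Sgk1 (-0.06, adjusted p = 0.835), Tat (-0.03, adjusted p = 0.751) and Dusp1 (-0.17, adjusted p = 0.676), 3 other classic targets, did not pass. The glucocorticoid motif, AGAACA and TGTTCT with 3 bases between them, is in 0 of the 7 called members that have a window, Bcl6 included. Only 3 of all 32851 windows hold it (0.00913%). A relaxed form, GNACA and TGTNC with 3 bases between them and N for any base, is also in 0 of the 7. It is in 0.475% of all windows, so 0 of 7 says little for either form. The number that rose was 3 without a trend in the prior variance and 2 with the spread of all 24 arrays.

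**Figure D3:**
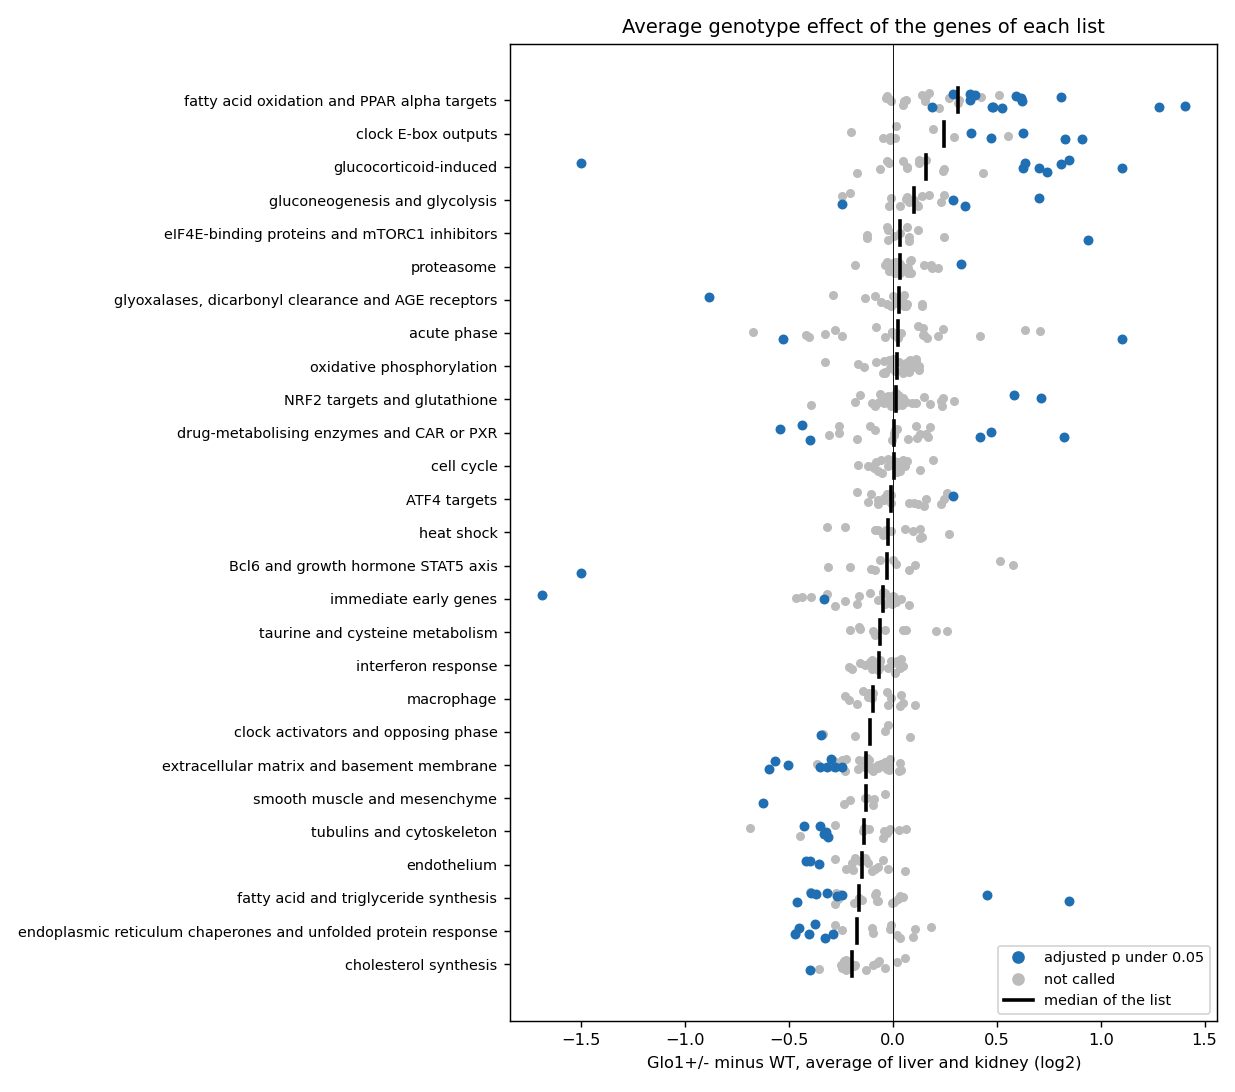
Average genotype effect (horizontal axis, log2, Glo1+/- minus WT over liver and kidney) of the genes of 24 pathway lists and 3 cell type lists, ordered by their medians (black bars); blue points are called and grey points are not. Fatty acid oxidation has 14 blue points to the right of 0 and none to the left, while the endoplasmic reticulum chaperones have 6 and the extracellular matrix 8, all to the left.

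Chaperones of the endoplasmic reticulum fold secreted and membrane proteins. Of 18 genes of this list 6 fell, 0 rose and 12 did not pass, where 1.16% of all genes fell and 0.856% rose. The list's median change was -0.17, and its median level overlapped between genotypes in liver and was apart in kidney. Those that fell were Hsp90b1 (GRP94), the protein disulfide isomerases Pdia3, Pdia4 and Pdia6, the lectin chaperone Calr and the translocon subunit Sec61b. The endoplasmic reticulum stress element, CCAAT and CCACG with 9 bases between them, through which the stress-activated factor ATF6 acts with NF-Y, stands in the windows of Hsp90b1 (2 copies), Pdia6 and Calr. These windows show it in capitals, in either orientation, for Hsp90b1 at chr10:86705395-86705694 on the minus strand and for Pdia6 at chr12:17266339-17266638 on the plus strand, from RefSeq on GRCm38.p6.
Hsp90b1: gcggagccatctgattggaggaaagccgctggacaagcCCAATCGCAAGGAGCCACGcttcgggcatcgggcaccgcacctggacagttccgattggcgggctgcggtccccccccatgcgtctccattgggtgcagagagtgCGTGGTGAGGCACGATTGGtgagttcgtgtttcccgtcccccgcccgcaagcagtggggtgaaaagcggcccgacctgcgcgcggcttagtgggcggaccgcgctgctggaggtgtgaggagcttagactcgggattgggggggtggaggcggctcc
Pdia6: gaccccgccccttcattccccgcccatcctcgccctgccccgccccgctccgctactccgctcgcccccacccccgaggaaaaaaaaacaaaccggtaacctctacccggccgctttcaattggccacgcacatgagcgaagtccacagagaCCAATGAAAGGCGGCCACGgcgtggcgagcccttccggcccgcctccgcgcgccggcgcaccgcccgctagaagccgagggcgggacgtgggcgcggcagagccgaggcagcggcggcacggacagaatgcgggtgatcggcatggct

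The element is in 3 of the 6 called genes and in 7 of the 16 listed genes with a window. It is in 0.137% of all genes with a window and in 0.119% of all windows. The list includes genes of the unfolded protein response, so a larger share than in other genes is built into it. It was searched after the list's values were known. Hsp90b1 had 13.34, 13.15 and 13.22 in Glo1+/- livers, against 13.59, 13.47 and 13.82 in WT livers. Its kidney values were 12.54, 12.97 and 12.65 in Glo1+/- and 13.31, 13.08 and 13.43 in WT. Groups were apart by about 0.1 in each organ (average -0.47 ± 0.08, adjusted p = 0.00607), and neither organ passed alone.

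Pdia6, which shuffles disulfide bonds, fell by 0.45 on the log2 scale (adjusted p = 0.00377), with 9.38, 9.47 and 9.39 in Glo1+/- livers against 9.89, 9.73 and 10.03 in WT livers and 8.80, 9.09 and 8.79 in Glo1+/- kidneys against 9.32, 9.20 and 9.46 in WT kidneys. Calr, Pdia3 and Sec61b changed more in kidney, at -0.54, -0.48 and -0.51, than in liver, at -0.20, -0.17 and -0.07, with no called difference between the organs. Members that carry the element and did not pass include Creld2 (-0.47, adjusted p = 0.133), Dnajc3 (-0.25, adjusted p = 0.111), Hspa5, or BiP (-0.10, adjusted p = 0.551), and Canx (0.04, adjusted p = 0.428). The unfolded protein response marker Ddit3 changed by -0.01 (adjusted p = 0.951). Fewer members fell, 3, without Glo1+/- kidney 1, WT kidney 1 or any 1 of the Glo1+/- livers, and 1 with the spread of all 24 arrays.

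Extracellular matrix genes fell in 8 cases of 42, where 1.16% of all genes fell, with 0 higher and a median of -0.13. They encode components of basement membranes or fibrils, or proteins that bind these: the collagen IV chains Col4a1 and Col4a2, the nidogens Nid1 and Nid2, the laminin chain Lamc1, Col15a1, Col5a1 and the matricellular protein Sparc. Col4a1 had 9.42, 9.52 and 9.29 in Glo1+/- livers against 10.12, 10.21 and 9.83 in WT livers. Its kidney values were 11.41, 11.22 and 11.36 in Glo1+/- against 11.86, 11.94 and 11.83 in WT. Both organs passed alone (average -0.60 ± 0.08, adjusted p = 0.000716), and Col4a2 followed with -0.51 ± 0.06 (adjusted p = 0.000444). Of the list, 6 to 10 fell with any array left out, 8 without WT kidney 1, and 0 with the spread of all 24 arrays. Sparc fell by 0.57 on the log2 scale (adjusted p = 0.00268), with 9.81, 10.02 and 9.97 in Glo1+/- livers against 10.41, 10.61 and 10.93 in WT livers, and 10.78, 10.83 and 11.01 in Glo1+/- kidneys against 11.10, 11.38 and 11.38 in WT kidneys.

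Markers of endothelium and smooth muscle, which make basement membrane, were read beside these genes. Of 18 endothelial genes 3 fell, Flt1, a receptor of VEGF (-0.42), Ets1 (-0.40) and Icam2 (-0.36), and 0 rose, where 1.16% of all genes fell. Of the 18 genes 17 had a negative average, and their median change was -0.30 in liver and -0.02 in kidney. Their summed level was 13.80 to 13.91 in Glo1+/- livers against 14.09 to 14.32 in WT livers, and 14.56 to 14.69 in Glo1+/- kidneys against 14.58 to 14.83 in WT kidneys, so the groups were apart in liver and overlapped in kidney. The defining markers Cdh5 (-0.13, adjusted p = 0.181), Pecam1 (-0.18, adjusted p = 0.283) and Kdr (-0.05, at the floor) did not pass. Of 8 smooth muscle and mesenchymal genes all 8 were negative and 1 fell, the smooth muscle actin Acta2 (-0.62 ± 0.14, adjusted p = 0.0273); the summed level was 11.49 to 11.62 in Glo1+/- livers against 11.70 to 12.07 in WT livers, and 12.50 to 12.88 in Glo1+/- kidneys against 12.86 to 13.42 in WT kidneys, apart in liver and overlapping slightly in kidney. In bulk tissue, fewer cells of a type and less RNA per cell cannot be told apart, and the part of cell composition in the fall of the matrix genes was not tested.

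**Figure D4:**
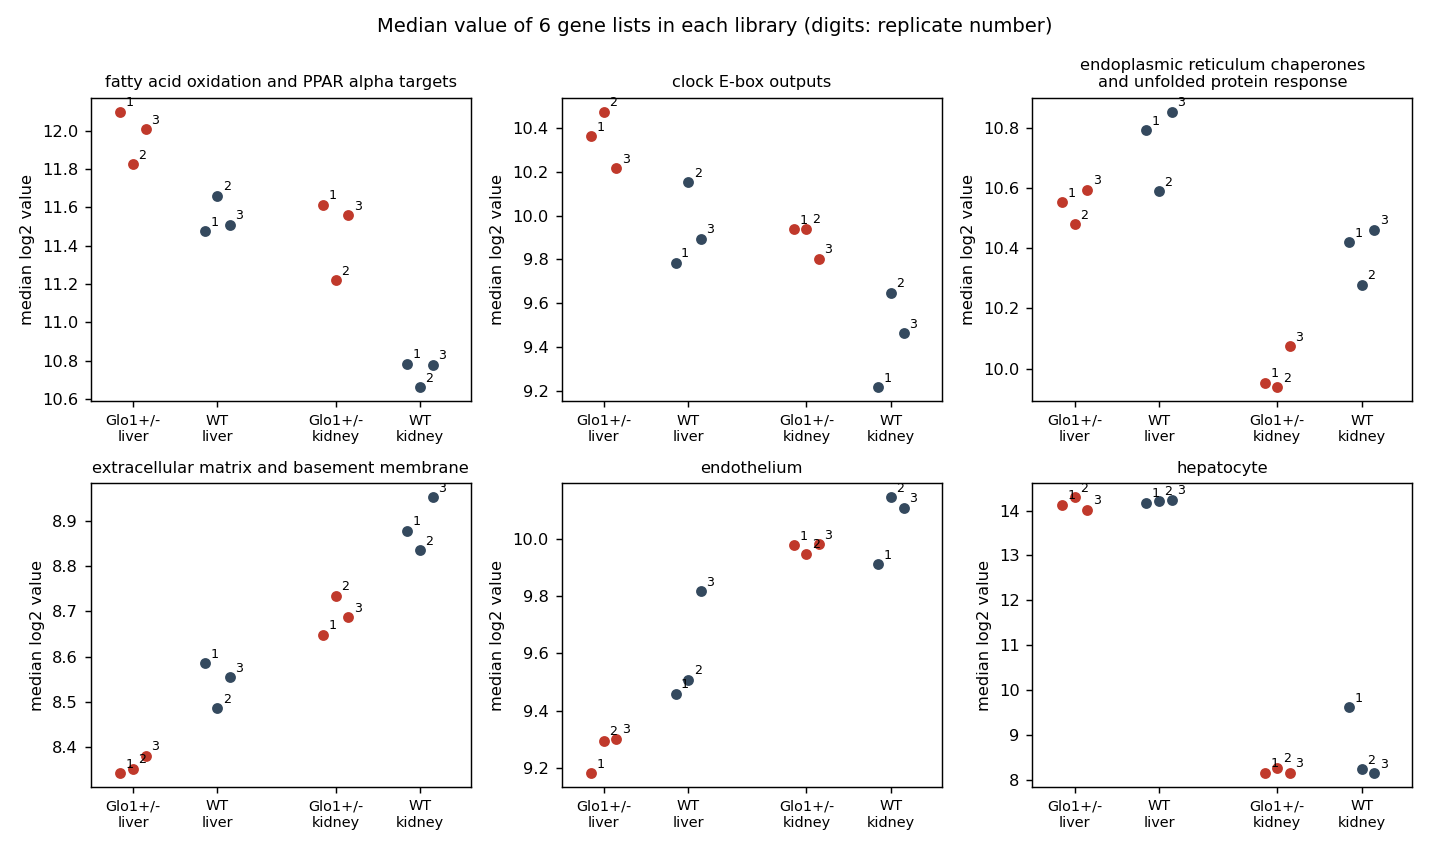
Median log2 value of 6 gene lists in each library, with Glo1+/- in red and WT in dark blue and the replicate number beside each point. Fatty acid oxidation lies higher and matrix lower in Glo1+/- without overlap in both organs; endothelial medians are apart in liver and overlap in kidney through WT kidney 1, the library that also stands out in the hepatocyte panel at 9.62.

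Tubulin and cytoskeleton genes included 5 of 18 that fell and 0 that rose (median -0.14), where 1.16% of all genes fell. The 5 are Tubb4b, Tuba1a, Tuba1b, Tubb5 and Tubb6, and the list's median was -0.37 in liver and -0.04 in kidney. Without Glo1+/- liver 1, or with the slide as a fixed block, 3 of them fell, and 1 with the spread of all 24 arrays. Other named genes that rose were Eif4ebp3, the 1 called of 13 eIF4E-binding proteins and mTORC1 inhibitors and a repressor of cap-dependent translation (0.94 ± 0.16, adjusted p = 0.00492, with 1.43 in liver and 0.44 in kidney), the urea cycle enzyme Asl (0.67), the nicotinamide riboside kinase Nmrk1 (0.65) and the galectin Lgals4 (0.67). Of all genes 0.856% rose, so 1 of 13 says little about the list that holds Eif4ebp3. Hspa8, a constitutive heat shock protein, rose by 0.72 on 1 probe and changed by 0.06 (adjusted p = 0.81) on a brighter one, so its probes disagree. Other named genes that fell were the cell adhesion receptor Cxadr (-0.64), Ethe1 (-0.60), the mitochondrial persulfide dioxygenase, Nt5e (-0.59), the ectonucleotidase CD73 that makes adenosine, the vasopressin receptor Avpr1a (-0.58), the elastase Cela1 (-0.53), Insc (-0.51) and Tnfaip2 (-0.47). Each is given by its shared probe of largest change. Insc and Tnfaip2 changed more in liver, at -0.82 and -0.72, than in kidney, at -0.20 and -0.22, with no called difference between the organs. Insc lay near the floor in kidney, with means of 8.24 in Glo1+/- and 8.44 in WT. Dimmer probes did not pass for Nt5e (-0.34, limma adjusted p = 0.0613), Avpr1a (-0.23, 0.160), Cxadr (-0.16, 0.366) and Tnfaip2 (-0.14, 0.462). Further dimmer probes of Cxadr (-0.56) and Tnfaip2 (-0.28) passed. In kidney the dimmer Tnfaip2 probes changed by -0.04 and 0.09. All 30 named genes kept their calls when each of the 12 arrays was left out in turn. They were chosen from these arrays as called and apart in both organs, which favours that outcome.

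The remaining lists held few or no called genes. Over all genes 0.856% rose and 1.16% fell, so 1 call in such a list says little. Of 34 NRF2 targets and glutathione genes 2 rose, the glutathione transferases Gstt2 (0.59 ± 0.08, adjusted p = 0.000909) and Gstp2 (0.72, with 1.20 in liver and 0.23 in kidney). Gstt2 had 11.41, 11.08 and 11.56 in Glo1+/- livers against 10.73, 10.78 and 10.80 in WT livers, and 12.35, 12.25 and 12.51 in Glo1+/- kidneys against 11.73, 11.75 and 11.85 in WT kidneys, with no overlap in either. Cholesterol synthesis had 1 of 18 lower (Sc5d) and a median of -0.20. ATF4 targets had 1 of 21 higher (Fgf21), the proteasome 1 of 29 higher (Psmb7) and drug-metabolising enzymes 3 of 24 higher (Alas1, Nr1i3, Cyp2b9) and 3 lower (Cyp2c55, Cyp1a2, Cyp2c29). The acute phase list had 1 of 25 higher (Lcn2) and 1 lower, Hp, whose fall lay in kidney (-1.14), where WT kidney 1 carried hepatocyte transcripts. In the 5 lists of heat shock (14 genes), taurine and cysteine metabolism (10), oxidative phosphorylation (36), the interferon response (22) and the cell cycle (27), 0 genes were called. Macrophage (15 genes), lymphocyte (10), neutrophil (9), erythroid (4), podocyte (3), biliary (8), kidney tubule (15) and adipocyte (9) markers had 0 called as well. Hepatocyte markers had Alb lower, on a probe with means of 9.01 in Glo1+/- and 9.68 in WT livers. The median of the list lay at 14.02 to 14.30 in Glo1+/- livers. The probe was at the floor in kidney (8.09 and 8.07), so its change of -0.67 could be read in liver alone. Pancreatic markers had Cela1 lower.

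Gonadal adipose tissue and aorta give samples that took no part in choosing the shared genes. Of the 225 genes, 122 had the same sign in adipose tissue (54.2%), against 48.8% of all probes above the median, and 1, Tuba1a, was called there; it was the only call in the whole adipose table (0.00389%; 2927 probes had an unadjusted p under 0.05). In aorta 120 had the same sign (53.3%, against 51.7% of all probes above the median) and 0 were called, as in the whole table, where 917 probes had an unadjusted p under 0.05. The Glo1 values of the aorta libraries numbered 3 go against their labels: Glo1 had 10.61, 11.08 and 11.90 in the libraries labelled Glo1+/- and 12.17, 12.08 and 11.22 in those labelled WT. Both were left out because of Glo1, so Glo1 itself is no evidence there. Without them, 158 of the other 224 genes had the same sign (70.5%, against 53.7%) and 22 were called, where 349 probes of the table were (1.36%). This leaves 2 against 2 arrays.

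Of the 22, 20 moved in aorta the way they did in liver and kidney, and Angptl4 (-0.51, adjusted p = 0.0113) and Ptprk (0.54) moved the other way. Egr1 fell by 2.34 on the log2 scale there (adjusted p = 0.0024) and Ide by 0.61 (adjusted p = 0.0131), while Ciart rose by 1.01 (adjusted p = 0.00142), Dbp by 0.68 and Tef by 0.58. Ide in adipose tissue had 10.07, 10.26 and 10.14 in Glo1+/- against 10.86, 10.75 and 10.46 in WT, with no overlap, and its change of -0.54 did not pass (adjusted p = 0.279). Of the fatty acid oxidation genes, Cyp4a31 changed by 0.15 in adipose tissue and 0.05 in aorta without the libraries numbered 3, Slc25a20 by -0.13 and 0.23, and Eci2 by 0.18 and 0.17, and none of these passed.

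**Figure D5:**
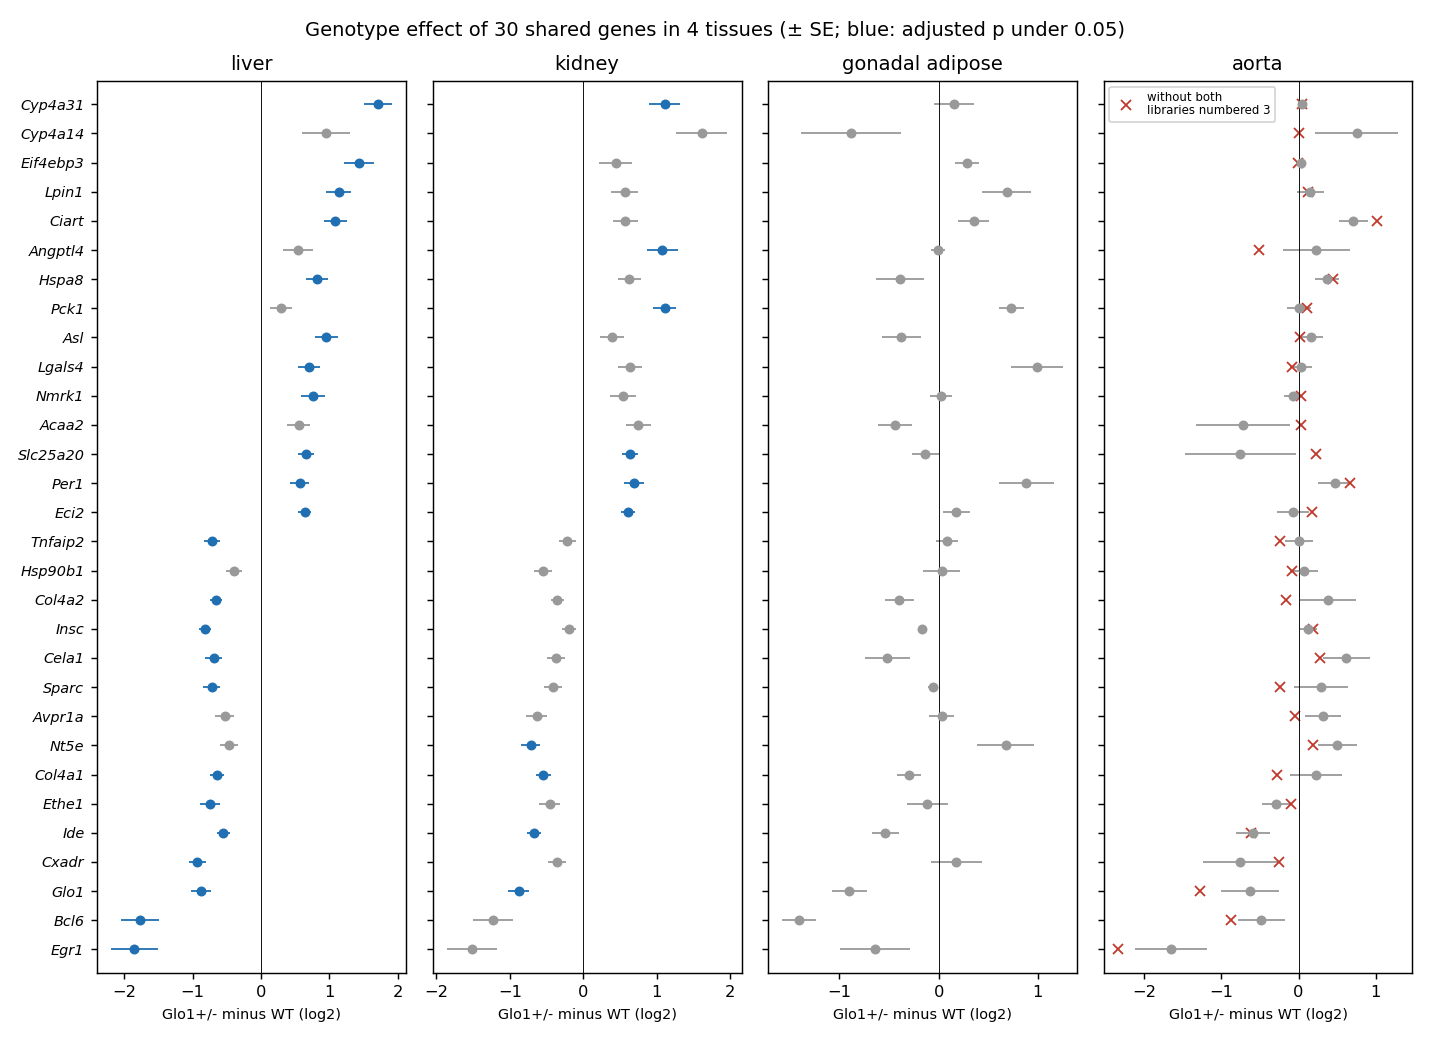
Genotype effect (log2, Glo1+/- minus WT, ± SE) of the 30 named genes in liver, kidney, gonadal adipose tissue and aorta, blue where the adjusted p is under 0.05; red crosses give aorta without both libraries numbered 3. In liver 23 and in kidney 10 of the genes are called. All 30 point the same way in both organs, which was a rule of their choice. In adipose tissue and aorta, which took no part in the choice, 19 and 17 have that sign.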

How the data were processed

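Total RNA of liver and kidney was hybridised to Illumina mouse bead arrays, 1 sample an array. The deposited table holds log2 values (or values on a scale like it) that the authors made with lumi 2.32.0, per the submitters' processing notes; the sources used here give neither background correction nor normalization. With 3 arrays a group, precision is limited by their number, and an exact test of 3 against 3 cannot go below p = 0.1. P-values measure the spread between these samples, which may be technical. Of other per-sample columns, 0 were present.

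A model of 4 group means was fitted to the 12 arrays with limma 3.58.1 in R 4.3.3 (lmFit, eBayes with a trend, 2-sided), and p-values were adjusted by Benjamini-Hochberg over 25697 probes; the procedure was tested on simulated data. Adipose tissue and aorta were fitted on their own arrays. The platform annotation gives 1 gene for 23978 probes and none for 1719, naming 16593 genes. In gene lists a gene is read by its brightest probe over the 12 arrays. The 37 lists hold 746 symbols, of which 664 are on the array. Named are Glo1 and the 15 higher and 15 lower shared genes of largest average change (Glo1 among the latter), up to 5 members of each list with the smallest p and the one of opposite sign; other list members and shared genes are named after their values were seen. The endoplasmic reticulum stress element was chosen after the values were seen. The comparison, lists and named genes were chosen with earlier results of these data known. Promoters were matched by symbol to RefSeq windows of GRCm38.p6. Alternatives were no trend, dim probes removed, quantile normalization, slide and replicate blocks, the spread of all 24 arrays, and each array left out.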

Additional observations from a re-analysis of the deposited data

Results flagged for a closer look

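The genotype effect differed between liver and kidney for 22 probes by the test of the difference itself (limma, adjusted p under 0.05), 14 with the higher effect in liver and 8 with the lower. None belongs to the 225 shared genes by the probe that represents the gene there. The shared gene Pcsk4, represented by a probe with 0.84 in liver and 0.34 in kidney, has other probes among the 22. These changed by 0.87, 0.73 and 0.81 in liver and by 0.04, 0.04 and 0.16 in kidney, where they lie near the floor. Gpcpd1, a glycerophosphodiester phosphodiesterase, changed by 1.25 in liver and 0.06 in kidney, Nr1i3, the xenobiotic receptor CAR, by 0.98 and -0.04, and Cyp2c55, a drug-metabolising enzyme, by -1.08 and -0.01; all of them lie near the floor in kidney, with group means of 8.08 to 8.25. In the other direction Cyp2d12 changed by -0.09 in liver, where it lies near the floor (means 8.36 and 8.45), and by 0.93 in kidney. Hp differed through its fall in kidney of -1.14, where WT kidney 1 carried hepatocyte transcripts. The count was 4 without Glo1+/- kidney 3, 5 without Glo1+/- kidney 2, 7 without WT kidney 2, 12 and 14 without Glo1+/- liver 2 and 3, 41 without WT liver 1 and 233 without WT liver 3.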

How the results depend on the processing

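The direction of all 30 named genes held in every alternative run. These genes were chosen as called and apart in both organs on the same arrays. With an array left out, that choice alone fixes the direction and favours the call. Their calls held with each array left out, with both slide and replicate blocks as random terms, under quantile normalization and without dim probes; without a trend 3 were lost (Cyp4a14, Angptl4, Nmrk1), with the slide as a fixed block 4 (Angptl4, Nmrk1, Avpr1a, Tnfaip2), and with the spread of all 24 arrays 15. The counts moved more. Probes called on average were 1293 with the slide as a fixed block, 266 with liver and kidney of 1 number averaged and 117 with the 24-array spread, and 228 to 688 with 1 array left out. Shared probes were 160 by averaging, 68 with the 24-array spread, 408 without WT 3 of both tissues (chosen after seeing the data) and 163 to 347 with 1 array left out. Probes called in both organs were 7 with the slide as a random block, 1 with the 24-array spread, 38 without WT 3 of both tissues and 3 to 27 with 1 array left out. Probes that differ between organs were 37 and 8 with the slide as a fixed and as a random block, 35 with genotype and number as a random block, 187 without WT 3 of both tissues and 4 to 233 with 1 array left out. The cause was not tested. For the replicate block, same-numbered WT livers and kidneys deviated together at r = 0.12, 0.11 and 0.26, and Glo1+/- ones at 0.03, -0.06 and 0.04, so not every pair was above 0.1 and the samples were not treated as paired, although all 3 WT pairs were; whether numbers mark animals was not tested; with the number as a fixed replicate block the 4 counts were 562, 283, 17 and 27. Falls of genes near the floor are limited by it.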

Other observations

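Some shared genes outside the lists, picked after their values were seen and so given without a test of their group, were lower in Glo1+/- mice in both organs. Uggt1, the folding sensor that reglucosylates glycoproteins, changed by -0.47 ± 0.08 on average (limma adjusted p = 0.00485), with -0.44 in liver and -0.50 in kidney. Stt3a, a catalytic subunit of oligosaccharyltransferase (-0.39), Mgat1, a Golgi glycosyltransferase (-0.29), the cargo lectins Lman2 (-0.38) and Lman2l (-0.39), the ubiquitin ligase Syvn1 of endoplasmic reticulum degradation (-0.36), the prolyl isomerase Fkbp11 (-0.34) and the chaperone Erp29 (-0.29) were also apart in both organs. A second Mgat1 probe gave 0.08 (adjusted p = 0.61).

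Among the shared genes that rose and belong to no list described above are Nr1h4, the bile acid receptor FXR (0.55 ± 0.07, adjusted p = 0.000952, with 0.40 in liver and 0.70 in kidney), Slc37a4, the glucose 6-phosphate transporter of the endoplasmic reticulum (0.41), and Slc2a2, the glucose carrier GLUT2 (0.50). Glud1, glutamate dehydrogenase, rose by 0.44 and Oplah, 5-oxoprolinase of the glutathione cycle, by 0.47. Nampt, which makes nicotinamide mononucleotide, rose by 0.44 ± 0.10 (adjusted p = 0.0267) and Nadsyn1, an NAD synthetase, by 0.32 ± 0.06 (adjusted p = 0.00586). The probes of Nadsyn1 disagree, with 0.28 and 0.03 on its other probes.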
